A study of Homo sapiens with 6 samples.

Results

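Loss of MRCKβ alone was examined in the single MRCKβ KO library of the series, set against 2 libraries of vector control cells. All cells were MDA-MB-231, a human line grown from a metastasis of a triple-negative breast tumour, and all had been transduced with lentiCRISPRv2, a lentivirus that carries Cas9 and a guide RNA. The members described here are the genes with 50 or more expected counts in the MRCKβ KO library, or in both vector libraries, whose FPKM in MRCKβ KO lay outside the range of the 2 vector values. FPKM is the number of fragments of a gene scaled to the length of its transcript and to the size of the library. Of 17064 genes listed, 11148 met the count minimum and 6663 of these lay outside the range. A value drawn like the 2 controls would also often fall outside their range, so membership alone shows no response to the knockout.

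Vector control cells received the empty virus in 2 separate transductions (vector 1 and vector 2). The MRCKβ KO library (genotype CDC42BPB knockout), the MRCKα KO library (CDC42BPA knockout) and the 2 libraries of double knockout cells (DKO 1 and DKO 2) came from cells transduced with guides against the coding regions. The 2 DKO libraries were made with different guides for each gene, whereas which of the guides gave the MRCKβ KO library is not given in the sources used here. The cells were selected with puromycin or blasticidin and used without clone picking, so each library is a pool that may hold unedited cells. For these knockout cells the paper reports a highly efficient loss of the proteins on immunoblots. With 1 MRCKβ KO library there is no replicate of the knockout, and the difference between the knockout and the range of the vector libraries is a description without a test.

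MRCKα and MRCKβ are serine/threonine kinases that bind active Cdc42. They promote actomyosin contraction by phosphorylating the myosin phosphatase subunit MYPT1 and myosin light chain, and they activate LIM kinases, which inactivate cofilin and so slow the turnover of actin filaments. ROCK1 and ROCK2, which are activated by RhoA, share many of these substrates.

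The gene of MRCKβ is CDC42BPB. It spans 102932379 to 103057462 of chromosome 14 (GRCh38) and is read from the minus strand. Its coding sequence opens in exon 1, which holds 175 coding bases. The first 90 of these, at chr14:103057084-103057173, are shown because the knockout is made in the coding region, with the start codon in capitals.
CDC42BPB coding start: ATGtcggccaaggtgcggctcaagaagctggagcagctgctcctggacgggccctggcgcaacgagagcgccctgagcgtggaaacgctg

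CDC42BPB RNA was present in every library. Its level was 25.7 FPKM in MRCKβ KO, against 30.3 in vector 1 and 29.1 in vector 2, and it was 27.3 in MRCKα KO, 23.4 in DKO 1 and 23.5 in DKO 2. The 3 libraries with the MRCKβ knockout held the 3 lowest values. In MRCKβ KO the gene had 1806 counts, and the ratio of its share of the library to that of the nearer vector library was 0.887 (95% interval 0.832 to 0.946, exact, counting error only). Short insertions and deletions in a coding exon need not change the RNA level, so these values do not measure how many cells were edited. CDC42BPA, the gene of MRCKα, was within the vector range, at 34.9 FPKM in MRCKβ KO against 36.4 and 23.3 in the vector libraries.

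The libraries held between 10349898 and 10657857 expected counts, and the 10 most abundant genes took 3.55% to 4.19% of each. Over the 11148 genes the MRCKβ KO library lay closer to vector 1, with a median absolute log2 difference of 0.118, than to vector 2, at 0.217. The 2 vector libraries differed from each other by 0.216, which was more than vector 1 differed from any knockout library. The line's mesenchymal markers were high, with 1641 FPKM of VIM in MRCKβ KO, while the summed level of 6 luminal and epithelial markers was between 18.3 and 22.2 FPKM in all 6 libraries. The summed level of 6 leukocyte markers was 90.4 FPKM in MRCKβ KO, against 77.7 and 108 in the vector libraries and 74.7 to 99.2 in the other knockout libraries. Most of it was CD68, at 66.7 to 98.5 FPKM, which tumour lines also express, and LYZ, while CD3E and CD79A were at 0.09 FPKM or less. Of 6 fibroblast markers the sum was 7.10 FPKM in MRCKβ KO, 10.4 in vector 1 and 3.73 in vector 2, mostly of PDGFRB and COL1A1. Of 6 genes that mark HEK293T, the line in which the virus was made, 4 were listed. NEFM and LIN28B were at 0 in MRCKβ KO and both vector libraries and at 0.65 and 0.18 FPKM in MRCKα KO. SOX2 was at 0.22 FPKM in MRCKβ KO, 0 and 0.19 in the vector libraries, 0.38 in MRCKα KO, 0.61 in DKO 1 and 1.19 in DKO 2, and CITED1 was at 116 to 128 FPKM in all 6 libraries. The part of other cells in the results below was not tested.

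Of the 11148 genes, 3435 were above both vector values in MRCKβ KO (30.8%), 3228 were below both (29.0%) and 4485 were within the range. Most members were close to the edge, and the median ratio to the nearer vector value was 1.07 above the range and 0.934 below it. At a margin of 25% 376 genes were above and 268 below, at 1.5-fold 78 (0.7%) and 42 (0.377%), and at 2-fold 12 and 2. The same rule applied to the other knockout libraries placed 59.6% of genes outside the vector range in MRCKα KO, 55.7% in DKO 1 and 59.6% in DKO 2, against 59.8% in MRCKβ KO. These libraries share the vector controls. At 1.5-fold MRCKα KO had 129 genes above (1.16%) and 102 below (0.918%). DKO 1 had 94 (0.846%) and 40 (0.36%), and DKO 2 had 132 (1.19%) and 125 (1.13%).

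Counting error alone was smaller than the distance to the nearer vector library for 785 of the genes above (7.04% of 11148) and for 740 of those below (6.64%), as judged by the 95% interval. Members just outside the range were CHCHD2 at 222.49 FPKM and KLC1 at 40.18 above, and SYN3 at 30.21 and CBFB at 29.95 below, each next to a vector value. PAPPA and MED12L equalled the upper vector value and TMEM218 and TIGD1 the lower one, so they counted as within. At the count minimum EGLN3 and NDNF entered with 50 counts, and ZC3H12B and FAM129C were left out with 49.77 and 49.35.

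In a fit of all 4 groups with edgeR's quasi-likelihood test over 13764 genes, MRCKβ KO against vector gave 0 genes (0.0%) with a Benjamini-Hochberg adjusted p under 0.05. At an unadjusted p under 0.05 there were 87 genes higher and 79 lower. DESeq2 called 1 gene, MTPN. The fit had 2 residual degrees of freedom and a biological coefficient of variation of 17.4%, estimated from the vector and DKO pairs, and the lone knockout library was assumed to vary in the same way.

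Among members with 1000 or more counts in the MRCKβ KO library and in both vector libraries, the 8 furthest above the range were HSPA5, MYC, YARS, MIF, MYL12A, MTRNR2L2, CITED2 and MTRNR2L1. HSPA5 encodes BiP, the main chaperone of the endoplasmic reticulum. It was at 274 FPKM in MRCKβ KO, 183 and 191 in the vector libraries, 218 in MRCKα KO, 222 in DKO 1 and 164 in DKO 2, so it was highest in MRCKβ KO, at 1.43 times the nearer vector value (95% counting interval 1.39 to 1.47).

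MYC, a transcription factor that drives growth, was at 109 FPKM against 83.7 and 61.2 in vector 1 and vector 2, and DKO 1 reached the same level at 110. MIF, a cytokine, was at 425 FPKM against 333 and 328, above every other library. YARS, the tyrosyl-tRNA synthetase, was at 88.8 FPKM against 69.0 and 49.7. CITED2, a regulator of the CBP/p300 coactivators, was at 174 FPKM against 137 and 85.5. MTRNR2L1 and MTRNR2L2 are near copies of mitochondrial ribosomal RNA and MYL12A has a close paralog in MYL12B, so reads of these 3 genes may be split between copies.

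The 8 furthest below were THBS1, STIL, CDC25B, SLC20A1, TOR1AIP1, CENPN, H2AFX and SMC2. THBS1, a secreted matrix glycoprotein, was at 36.6 FPKM in MRCKβ KO, against 52.6 in vector 1 and 75.9 in vector 2. It was at 54.3 in MRCKα KO, 46.1 in DKO 1 and 62.7 in DKO 2, so MRCKβ KO was the lowest, at 0.696 times the nearer vector value (count ratio 0.702, interval 0.665 to 0.741). Its edgeR log2 difference from vector was -0.81 ± 0.28 (SE). STIL, a centriole duplication factor, was at 25.4 FPKM against 34.0 and 35.1. SLC20A1, a phosphate transporter, was at 54.0 FPKM against 69.9 and 105, and the other 3 knockout libraries lay between 54.8 and 60.4.

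**Figure D1:**
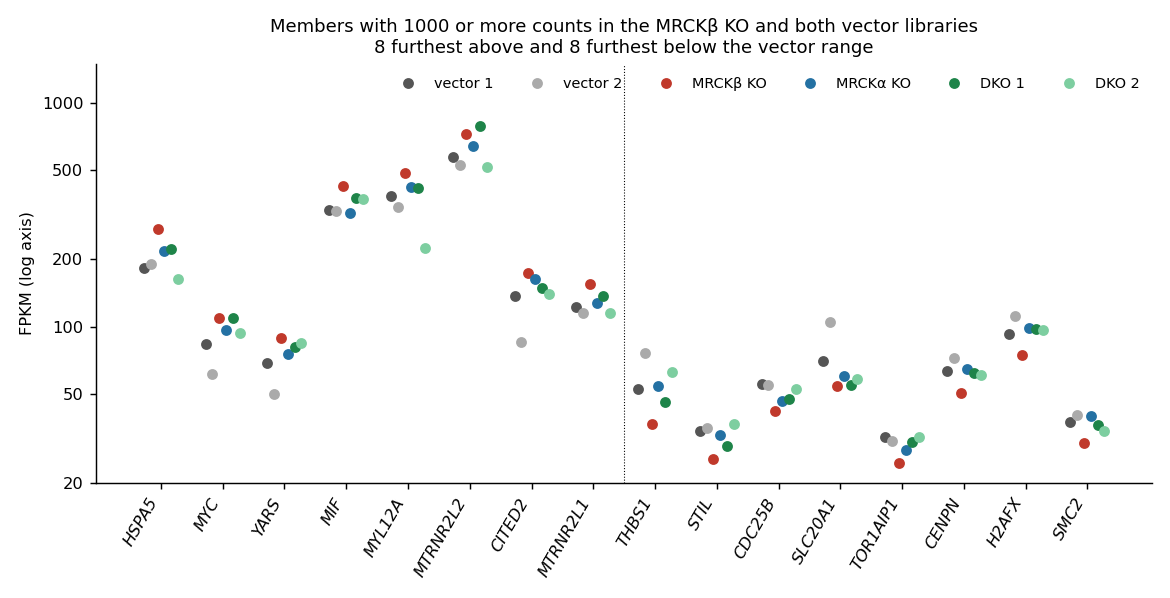
FPKM (log axis) of the 16 genes in each of the 6 libraries, 1 point per library, for members with 1000 or more counts in the MRCKβ KO and vector libraries. The MRCKβ KO point (red) is above both vector points (greys) for the 8 genes left of the dotted line and below both for the 8 right of it, with HSPA5 at 274 FPKM and THBS1 at 36.6 FPKM furthest out on each side.

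The 120 genes at least 1.5-fold outside the range were mostly of low level. Only 4 of the 78 above and 3 of the 42 below had 200 or more counts in MRCKβ KO and both vector libraries, and none had 1000. The counting interval excluded 1 for 70 of those above and 34 of those below. Of the 78 genes, 61 were highest in MRCKβ KO of all 6 libraries, and of the 42 genes 33 were lowest. Among all members these counts were 1692 of 3435 and 1860 of 3228, and the rule itself places MRCKβ KO beyond both vector libraries.

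Furthest above stood MTPN, the gene of myotrophin, with 322 counts and 7.72 FPKM in MRCKβ KO and 0 counts in each of the other 5 libraries, at least 104-fold higher against 3 counts in either vector library. LUZP6, which is annotated on the same messenger RNA, was at 54.0 FPKM in MRCKβ KO and 62.4 and 55.2 in the vector libraries. The counts of both entries together were 2568 in MRCKβ KO, 2602 in vector 1 and 2234 in vector 2, so their sum was within the vector range. The next 2 were the readthrough entries C7orf55-LUC7L2, with 65 counts against 10 and 0, and C8orf44-SGK3, with 85 counts against 0 and 20. C7orf55-LUC7L2 and LUC7L2 summed to 1484 counts against 1553 and 1442, which was also within the range, whereas C8orf44-SGK3 with SGK3 and C8orf44 summed to 199 against 161 and 165. These entries share reads with their neighbours, and the estimated split between them differed among libraries.

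The other genes at 2-fold or more above were LOC101929796, ZSCAN2, OPLAH, AP3S2, HLA-DMA, MYZAP, CHRFAM7A, SLC1A1 and LRP3. ZSCAN2, a zinc finger gene, was at 3.65 FPKM against 1.61 and 1.57, and at 0.83 to 2.04 in the other knockout libraries. HLA-DMA, which helps load peptides on MHC class II molecules, was at 10.1 FPKM against 4.94 and 4.56, with 118 counts against 58 and 52. AP3S2, an adaptor subunit of vesicle transport, was at 3.21 FPKM against 0.32 and 1.55, but MRCKα KO was higher at 3.57. ZSCAN2, AP3S2, MYZAP and CHRFAM7A lie on chromosome 15.

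Below the range, LOC101929839 had 0 counts in MRCKβ KO against 71 and 99 in the vector libraries. It also had 0 FPKM in MRCKα KO and DKO 1 and 3.1 in DKO 2. RNF180, a ubiquitin ligase, was at 0.92 FPKM against 2.61 and 1.92, the lowest of the 6 libraries. GPR137C, a membrane protein of lysosomes, was at 1.39 FPKM against 2.84 and 2.73, with 58 counts against 119 and 111. CLDN23, a claudin of tight junctions, was at 1.34 FPKM against 2.77 and 2.56, and the other knockout libraries lay between 2.03 and 2.45. DOK3, TMEM183B, LHX4, SPDYE2B, CFAP45, ENGASE, KIAA1456 and ZNF107 followed, at 0.534 to 0.576 times the nearer vector value. ENGASE was at 1.44 FPKM against 2.93 and 2.56, while its counts were 69 against 72 and 100, because FPKM also uses the transcript length estimated in each library.

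Of the genes at least 1.5-fold outside, those with 200 or more counts in all 3 libraries were HERPUD1, ICAM1, STC1 and SAT1 above and ZNF718, SAMD9L and EOGT below. STC1, a secreted glycoprotein hormone, was at 26.3 FPKM against 16.8 and 12.5. SAT1, which acetylates spermidine and spermine, was at 85.1 FPKM against 56.6 and 46.8, and DKO 2 was nearly as high at 83.4. EOGT, a glycosyltransferase of the endoplasmic reticulum, was at 4.65 FPKM against 7.04 and 9.83, and ZNF718, a zinc finger gene, at 3.41 against 6.30 and 5.55. Both were lowest in MRCKβ KO.

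Hand-written gene lists were then counted against the same range, with the 30.8% above and 29.0% below of all genes as the background. The 2 lists of the cell cycle stood apart on the low side. Lists of immediate early genes, of hypoxia and glycolysis and of ATF4 and the unfolded protein response had the largest shares above.

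In the MRCK pathway 33 of 36 genes were measured, of which 8 were above the range, 9 below and none 1.5-fold outside it. Among the kinases, ROCK2 was at 23.7 FPKM against 27.5 and 27.9, and MRCKα KO was lower still at 22.6. ROCK1 was at 29.7 FPKM against 28.9 and 20.2. Of the GTPases CDC42 was within the range, RAC1 was at 209 FPKM against 219 and 214, and RHOA was at 310 against 319 and 368. Of the LIM kinases, LIMK1 was at 24.3 FPKM against 23.5 and 22.7, the highest of the 6 libraries. LIMK2 was at 4.59 FPKM, below the lower vector value of 5.36. The counting intervals of both kinases included 1, and their substrate CFL1 was within the range. PAK2, a Cdc42-activated kinase, was at 37.8 FPKM against 43.1 and 49.8, the lowest of the 6 libraries.

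Of the myosin genes, MYL12A, a regulatory light chain, was at 485 FPKM against 382 and 343, at 421 in MRCKα KO, 416 in DKO 1 and 225 in DKO 2. MYH9, the heavy chain of nonmuscle myosin IIA, was at 140 FPKM against 142 and 153. Moesin (MSN), which links actin to the plasma membrane, was at 407 FPKM against 357 and 336, above every other library. PPP1R12A, which encodes MYPT1, was within the range, while the related PPP1R12B was below it by FPKM (1.78 against 2.55 and 2.66) and above the vector mean by scaled counts, by 0.08 on the log2 scale. The list's median log2 difference from the vector mean was 0.06.

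The actin nucleator LMOD1 had 11 counts in MRCKβ KO and so did not reach the count minimum. It was at 0.26 FPKM in MRCKβ KO, 0.02 in each vector library, 0.07 in MRCKα KO, 0.05 in DKO 1 and 0 in DKO 2. Each vector library had 1 count, and the ratio of shares was 10.7 against vector 2 (95% exact counting interval 1.56 to 461). Of 47 measured genes of actin nucleation and dynamics, 11 were above the range and 14 below, with FSCN1, a filament-bundling protein, at 31.8 FPKM against 37.0 and 43.1 and DIAPH1, a formin, at 52.2 against 59.5 and 61.4. Targets of SRF and its cofactors of the MRTF family were split, with 10 of 22 above and 7 below. TPM2, a tropomyosin, was furthest above at 11.9 FPKM against 8.02 and 7.94, and FLNC furthest below at 33.0 against 36.9 and 47.2. Targets of YAP and TEAD gave 6 above and 8 below of 24.

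Genes of mitosis and cytokinesis were lower in MRCKβ KO than in both vector libraries. Of 42 measured genes 37 were below the range (88.1%), 2 were above it and 3 within. MRCKβ KO was the lowest of all 6 libraries for 33 of the 37. The same held for 1860 of all 3228 members below the range, which the rule already places under both vector libraries. No gene was 1.5-fold below. The median log2 difference was -0.14 from vector 1 and -0.33 from vector 2. That of vector 1 from vector 2 was -0.18, so the controls differed by more than MRCKβ KO from vector 1. The median of all genes against the vector mean was 0.01. Against vector 1 alone 37 of the 42 genes were lower, and against vector 2 alone 40.

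CDC25B, a phosphatase that activates CDK1 at the entry to mitosis, was furthest below. It was at 42.0 FPKM in MRCKβ KO, 55.5 and 54.6 in the vector libraries, 46.6 in MRCKα KO, 47.2 in DKO 1 and 52.6 in DKO 2. CDC20, an activator of the anaphase-promoting complex, was at 142 FPKM against 172 and 210, and between 155 and 193 in the other knockout libraries. The condensin subunit SMC2 was at 30.1 FPKM against 37.3 and 40.1. TPX2, a spindle assembly factor, was at 151 FPKM against 173 and 190, TOP2A, a topoisomerase, at 118 against 134 and 167, and MKI67, the Ki-67 antigen, at 58.3 against 68.7 and 65.4. These 6 genes were each lowest in MRCKβ KO. PLK1 (79.0 FPKM against 87.2 and 99.8) and CCNB1 (117 against 129 and 157) were lower by less, and the only members above were TTK and CIT, at 1.02 times the nearer vector value or less.

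Many promoters of this list hold the cell cycle homology region (CHR), a short element of genes expressed in G2 and mitosis. With the letters TTTGAA sought on both strands, from 250 bases before to 50 after the gene start, the element was in 27 of the 36 promoters of the list that RefSeq gives (75.0%), in 9.59% of 9237 promoters of measured genes and in 15.4% of all 27305. CCAAT boxes were in 75.0% of the list and 37.3% of measured genes. Genes with a CHR match were below the range in 34.4% of 886 cases and those without in 28.7% of 8351, and outside the lists of mitosis, replication and the unfolded protein response the share was 32.7% of 857. A match of 6 letters is frequent by itself, and such a match describes the sequence and is no evidence of binding. The 250 bases before CDC20, on the plus strand at chr1:43358731-43358980, and before KIF4A, a chromosome-bound kinesin at 23.9 FPKM against 28.6 and 31.7, on the plus strand at chrX:70289854-70290103 (GRCh38.p14), are shown with the CHR letters or their complement in capitals, since these genes were the furthest below with a match before the start.
CDC20: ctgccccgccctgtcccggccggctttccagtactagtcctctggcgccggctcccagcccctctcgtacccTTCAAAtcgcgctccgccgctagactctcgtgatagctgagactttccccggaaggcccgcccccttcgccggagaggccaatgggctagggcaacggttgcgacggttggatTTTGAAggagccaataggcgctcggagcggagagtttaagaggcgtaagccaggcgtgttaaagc
KIF4A: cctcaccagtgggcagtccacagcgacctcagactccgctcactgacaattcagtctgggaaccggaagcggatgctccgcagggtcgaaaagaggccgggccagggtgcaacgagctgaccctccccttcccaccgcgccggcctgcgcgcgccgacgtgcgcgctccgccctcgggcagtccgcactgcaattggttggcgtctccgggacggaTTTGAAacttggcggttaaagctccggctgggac

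Genes of DNA replication showed the same pattern, with 35 of 42 below the range (83.3%), 1 above and 6 within. MRCKβ KO was the lowest of the 6 libraries for 25 of them. The median log2 difference was -0.14 from vector 1 and -0.35 from vector 2, and 35 genes were below vector 1 and 41 below vector 2. That of vector 1 from vector 2 was -0.22. CLSPN, a mediator of the replication checkpoint, was at 18.9 FPKM against 23.2 and 31.3, and between 25.9 and 27.6 in the other knockout libraries. CDC45, a helicase subunit, was at 18.8 FPKM against 22.9 and 26.7. MCM3, also of the helicase, was at 77.5 FPKM against 88.4 and 98.8, and RRM2, a subunit of ribonucleotide reductase, at 71.3 against 82.9 and 140. LIG1, a DNA ligase, was at 17.9 FPKM against 22.4 and 24.7, but MRCKα KO was lower at 16.4. PCNA was within the range, at 142 FPKM against 135 and 153. Only 2.78% of the replication promoters held the CHR letters. The labels state that cultures were subconfluent, and how the density of the cultures compared was not given in the sources used here.

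The mean log2(FPKM + 0.1) of the mitosis list was 5.64 in MRCKβ KO, 5.78 and 5.94 in vector 1 and vector 2, 5.83 in MRCKα KO, 5.78 in DKO 1 and 5.87 in DKO 2. For DNA replication it was 4.67 in MRCKβ KO and between 4.79 and 5.06 elsewhere. The MRCKβ KO library was the lowest for both lists, while the DKO libraries, which also lack MRCKβ, lay between the vector libraries.

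**Figure D2:**
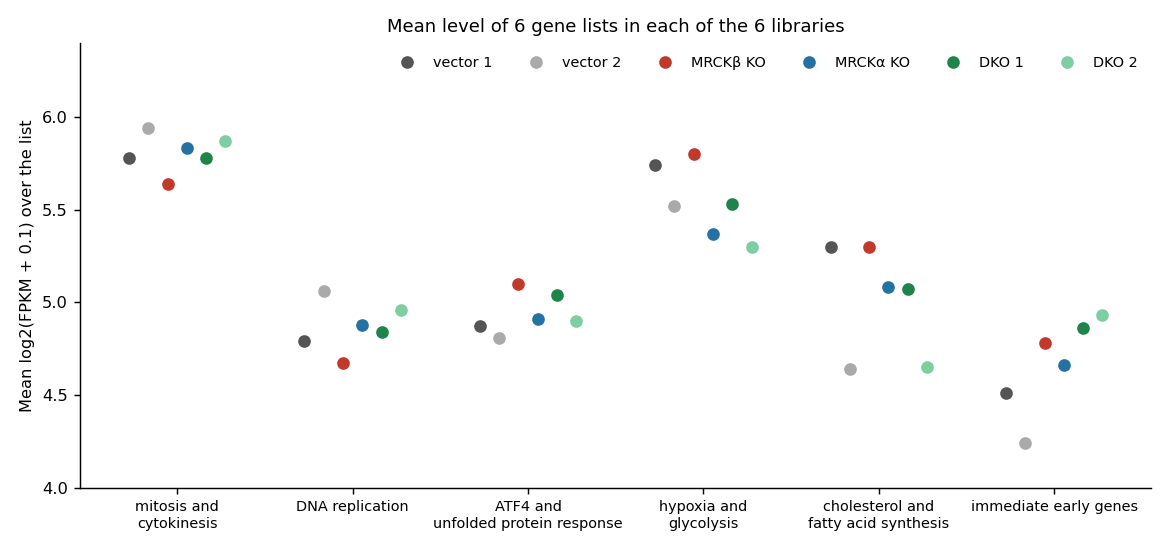
Mean log2(FPKM + 0.1) of 6 gene lists in each of the 6 libraries, 1 point per library. MRCKβ KO (red) is lowest for mitosis and cytokinesis (5.64) and DNA replication (4.67) and highest for ATF4 and the unfolded protein response (5.10) and for hypoxia and glycolysis (5.80), while the vector points stand far apart for cholesterol and fatty acid synthesis (5.30 and 4.64).

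Genes of ATF4 and of the unfolded protein response were higher. ATF4 and XBP1 are transcription factors that raise chaperones and amino acid supply when protein folding or translation is under stress. Of 29 measured genes 19 were above the range (65.5%), 4 below and 6 within. Of these 19, 13 were highest in MRCKβ KO of the 6 libraries, against 1692 of all 3435 members above the range. The median log2 difference was 0.19 from vector 1 and 0.39 from vector 2. Against vector 1 alone 24 of the 29 genes were higher, and against vector 2 alone 20.

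HERPUD1, which helps degrade misfolded proteins of the endoplasmic reticulum, was at 49.5 FPKM in MRCKβ KO, 29.1 and 19.1 in the vector libraries, 41.2 in MRCKα KO, 42.6 in DKO 1 and 30.4 in DKO 2. All 4 knockout libraries were thus above both vector libraries, and MRCKβ KO was the highest. CHAC1, which degrades glutathione, was at 17.6 FPKM against 10.7 and 4.75, and between 8.53 and 13.2 in the other knockout libraries. ATF4 itself was at 219 FPKM against 177 and 155, DDIT3, which encodes CHOP, at 35.8 against 23.9 and 25.6, and XBP1 at 45.2 against 34.8 and 36.9. DDIT3 was as high in MRCKα KO (35.2) and DKO 1 (36.4) and higher in DKO 2 (47.8). TRIB3, a pseudokinase induced by ATF4, was at 21.2 FPKM against 14.5 and 10.2, and PHGDH, the first enzyme of serine synthesis, at 24.0 against 18.4 and 16.8. In the other direction ATF5 was at 18.2 FPKM against 25.3 and 32.4, the lowest of the 6 libraries, and the amino acid transporter SLC7A5 at 162 against 179 and 180.

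The ER stress response element (ERSE), a CCAAT box followed at a fixed spacing by CCACG, was in 4 of the 26 promoters of this list that RefSeq gives (15.4%), those of HSPA5, HSP90B1, CRELD2 and XBP1, against 0.152% of measured genes and 0.0806% of all promoters. The C/EBP-ATF response element (CARE), TGATGNAA, was in ASNS, CHAC1, SLC3A2 and HERPUD1 (15.4%), against 1.6% of measured genes and 3.67% of all promoters. Both strands were searched, and each ERSE match contains a CCAAT match. Of 148 measured genes with the CARE letters 51 were above the range (34.5%) and 34 below, against 30.2% above of 9089 without. Outside the lists of mitosis, replication and the unfolded protein response the CARE share above was 33.6% of 143. There 3 of 10 genes with the ERSE letters were above (30.0%), against 30.2% of all genes without them. The lists were written by hand, so the shares of ERSE, CARE and CHR in them describe the lists and not the knockout. The 250 bases before HSPA5 (minus strand, chr9:125241344-125241593), HERPUD1 (plus strand, chr16:56931892-56932141) and CHAC1 (plus strand, chr15:40953221-40953470) are shown because these were the list's members furthest above with a match, with the ERSE of HSPA5 and the CARE of the other two, read on the opposite strand, in capitals.
HSPA5: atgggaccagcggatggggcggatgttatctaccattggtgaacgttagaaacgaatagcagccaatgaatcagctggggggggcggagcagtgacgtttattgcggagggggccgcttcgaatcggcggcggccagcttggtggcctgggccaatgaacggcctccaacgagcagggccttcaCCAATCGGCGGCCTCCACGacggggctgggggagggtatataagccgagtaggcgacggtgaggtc
HERPUD1: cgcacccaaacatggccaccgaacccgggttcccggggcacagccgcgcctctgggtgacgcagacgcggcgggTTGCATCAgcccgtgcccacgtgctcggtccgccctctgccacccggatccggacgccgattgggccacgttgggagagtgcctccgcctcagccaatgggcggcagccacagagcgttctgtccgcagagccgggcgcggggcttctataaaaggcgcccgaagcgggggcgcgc
CHAC1: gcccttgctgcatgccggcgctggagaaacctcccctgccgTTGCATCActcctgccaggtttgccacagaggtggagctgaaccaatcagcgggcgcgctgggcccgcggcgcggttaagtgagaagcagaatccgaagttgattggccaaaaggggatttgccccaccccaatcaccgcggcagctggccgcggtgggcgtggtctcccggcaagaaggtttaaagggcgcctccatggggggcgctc

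Immediate early genes, which growth factors and stress induce within minutes, were above the range in 14 of 21 cases (66.7%), with 1 below. ATF3 was at 8.85 FPKM against 4.56 and 3.15, and the other knockout libraries were as high or higher, at 8.95 to 10.96. EGR1 was at 18.1 FPKM against 12.5 and 6.81, and at 23.2 in MRCKα KO, 37.5 in DKO 1 and 70.8 in DKO 2. JUNB was at 40.3 FPKM against 28.0 and 22.1, and FOSB at 1.42 against 0.87 and 0.51, with 55 counts. Only 3 of the 21 genes were highest in MRCKβ KO. The median log2 difference was 0.17 from vector 1 and 0.53 from vector 2. Of 17 genes of ERK feedback 8 were above and 1 below, with the phosphatases DUSP1 at 59.8 FPKM against 47.6 and 16.5 and DUSP5 at 65.3 against 52.0 and 39.5.

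Genes of hypoxia and glycolysis were above the range in 22 of 35 cases (62.9%) and below in 3. MRCKβ KO was the highest library for 22, against 1692 of all 3435 members above the range. Against the vector mean the list's median log2 difference was 0.12 in MRCKβ KO, -0.20 in MRCKα KO and -0.22 in DKO, which also lacks MRCKβ. The differences from vector 1 were small, with a median of 0.08 on the log2 scale. NDRG1, which hypoxia induces, was at 111 FPKM in MRCKβ KO, 83.4 in vector 1 and 23.9 in vector 2, and at 31.8, 54.9 and 29.9 in MRCKα KO, DKO 1 and DKO 2. BNIP3, a mitophagy receptor, was at 126 FPKM against 111 and 77.3, and P4HA1, a collagen prolyl hydroxylase, at 35.4 against 29.4 and 30.1. Of the glycolytic enzymes PGAM1 was at 305 FPKM against 278 and 279, LDHA was within 1.01 times vector 1, and ALDOA, PKM and GAPDH were within the range. EGLN3, also an oxygen-responsive gene, was lower, at 1.10 FPKM and 32 counts against 1.88 and 1.94.

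In the synthesis of cholesterol and fatty acids 13 of 33 genes were above the range (39.4%) and none below, and the count turned on which vector library was used. Vector 1 was higher than vector 2 by a median of 0.63 on the log2 scale. Against vector 2 alone 32 of the 33 genes were higher in MRCKβ KO, and against vector 1 alone 14. SCD, a fatty acid desaturase, was at 232 FPKM in MRCKβ KO, 239 in vector 1 and 65.9 in vector 2. The furthest above were ACSS2, HSD17B7 and MVK, at 1.20 to 1.21 times the nearer vector value.

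**Figure D3:**
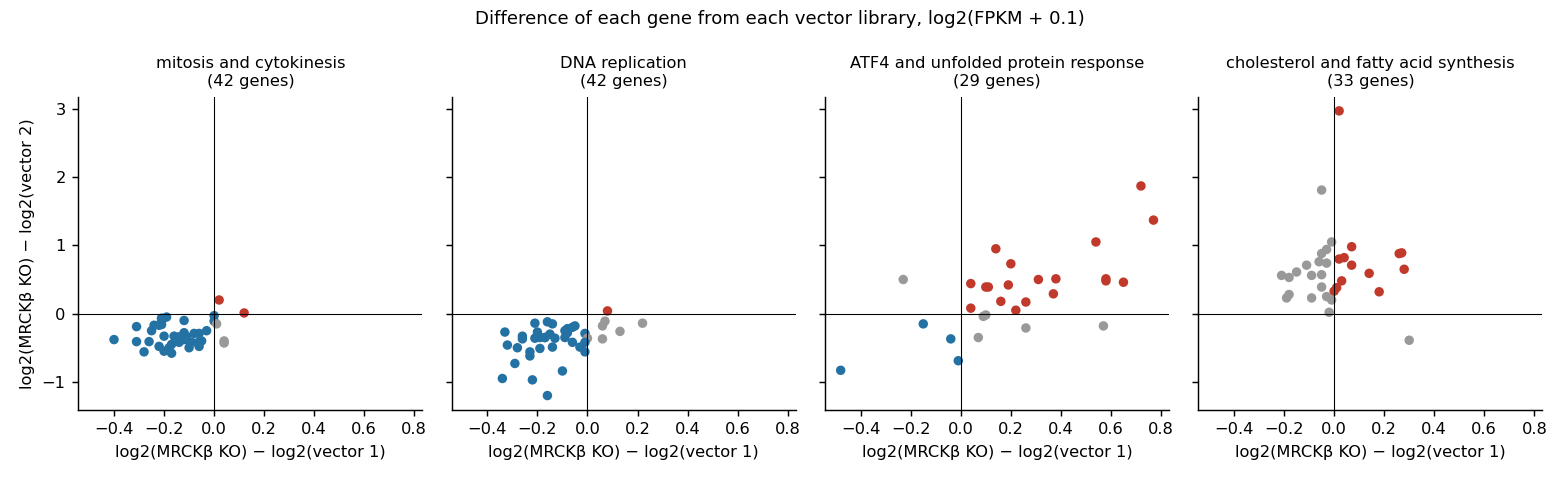
Difference of MRCKβ KO from vector 1 (horizontal axis) and from vector 2 (vertical axis) for each measured gene of 4 lists, on the log2(FPKM + 0.1) scale, with genes above both in red, below both in blue and within the range in grey. Mitosis and DNA replication genes cluster in the lower left quadrant (37 and 35 of 42), ATF4 and unfolded protein response genes in the upper right (19 of 29), and cholesterol genes spread along the axis of vector 2 (32 of 33 above it).

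Of NF-κB and inflammation genes 14 of 34 were above the range (41.2%) and 4 below. ICAM1, an adhesion molecule for leukocytes, was at 18.5 FPKM in MRCKβ KO, 9.21 and 11.7 in the vector libraries, 17.1 in MRCKα KO, 25.6 in DKO 1 and 29.9 in DKO 2. All 4 knockout libraries were above both vector libraries for ICAM1, and MRCKβ KO was not the highest. TNFAIP3, an inhibitor of NF-κB signalling, was at 3.11 FPKM against 1.74 and 2.47, and PTGS2, a prostaglandin synthase, at 4.68 against 2.44 and 3.55. The list's median was 0.29 from vector 1 and -0.03 from vector 2. Interferon-stimulated genes gave 9 above and 11 below of 38, with SAMD9L at 3.15 FPKM against 4.83 and 7.82, and antigen presentation 5 above and 6 below of 22.

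For adhesion and matrix, 10 of 26 genes of integrins and focal adhesion were above (38.5%) and 1 below, with ITGA1 at 7.28 FPKM against 6.18 and 5.83 and SRC at 11.1 against 9.70 and 7.77. Against vector 1 alone 16 of the 26 were higher and 10 lower. Of 25 matrix proteases and inhibitors 11 were above and 5 below, of which ADAM12 was furthest out at 0.667 times the nearer vector value. PLAT, tissue plasminogen activator, was at 40.0 FPKM against 31.3 and 14.3. Of 27 genes of collagens, laminins and matrix 5 were above and 8 below, and LAMA3, a laminin chain, was at 4.14 FPKM against 2.65 and 2.20. In the list of mesenchymal and epithelial state 10 of 21 were above and 2 below. The 3 furthest above were claudins of epithelial junctions, with CLDN7 at 9.51 FPKM against 5.66 and 2.40. The 2 below were CD44 (111 FPKM against 116 and 203) and AXL (267 against 271 and 367). They were at 0.957 and 0.986 times vector 1, with counting intervals that included 1. Of the line's 6 mesenchymal markers 3 were below the range, 2 above (FN1 and MSN) and VIM within. The epithelial marker EPCAM, under the count minimum, was at 1.86 FPKM against 2.62 and 2.47.

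Most of the remaining lists were near the background or divided, while the WNT pathway and NRF2 and iron leaned low. Growth factors and receptors gave 9 above and 6 below of 32, with the EGFR ligand AREG at 15.5 FPKM against 11.4 and 6.30. TGF-β and BMP genes gave 8 and 8 of 31, including GDF15 at 10.6 FPKM against 6.25 and 0.64. WNT pathway genes gave 4 and 9 of 22 (40.9% below), with WNT7B at 3.19 FPKM against 4.21 and 5.17. Targets of p53 gave 7 and 4 of 21. Genes of NRF2 and iron gave 3 and 9 of 23 (39.1% below), with a median of 0.00 from vector 1 and -0.51 from vector 2. NQO1, an NRF2 target, was at 64.5 FPKM against 75.7 in vector 1 and 268 in vector 2. Oxidative phosphorylation gave 28 above and 19 below of 73, cytosolic ribosomal proteins 18 and 12 of 78, and heat shock and chaperones 5 and 5 of 21. Of the replication-type histones, whose RNA mostly lacks a poly(A) tail, only 4 were measured and 1 was above.

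The loss of MRCKβ in cells that lack MRCKα was measured in different libraries, by comparing both DKO libraries with MRCKα KO. Over all 11148 genes both DKO libraries were above MRCKα KO for 34.3% and below it for 33.8%. Of the 3435 genes above the vector range in MRCKβ KO, both DKO libraries were above MRCKα KO for 1141 (33.2%) and below it for 1125 (32.8%). Of the 3228 genes below the vector range, the DKO libraries were below for 1108 (34.3%) and above for 1128 (34.9%). The direction of a member in MRCKβ KO was thus found again in DKO about as often as the opposite one. Of the 78 genes at least 1.5-fold above, 18 were higher in both DKO libraries and 24 lower, with a median log2 difference of -0.07. Of the 42 genes 1.5-fold below, 15 were lower and 8 higher, with a median of -0.05.

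For the lists described above, the comparison of DKO with MRCKα KO gave a median log2 difference of 0.00 for mitosis and cytokinesis, with 9 genes higher in both DKO libraries and 14 lower. It gave 0.05 for DNA replication (14 higher and 15 lower) and 0.03 for ATF4 and the unfolded protein response (13 and 6). Immediate early genes gave 0.21 (13 higher and 4 lower of 21), the same direction as in MRCKβ KO. Hypoxia and glycolysis gave 0.03 (13 and 10 of 35). Cholesterol and fatty acid synthesis gave -0.22, with 2 genes higher and 19 lower of 33. The NF-κB and inflammation list had the largest median, 0.40, with 28 of 34 genes higher in both DKO libraries and 1 lower. HSPA5 differed by -0.18 ± 0.21 (SE) on the log2 scale, HERPUD1 by -0.18 ± 0.30, THBS1 by 0.00 ± 0.27 and CDC25B by 0.12 ± 0.14, each with an adjusted p of 1 by edgeR's quasi-likelihood test. CDC42BPB differed by -0.21 ± 0.14, the same value as in MRCKβ KO against vector (-0.21 ± 0.14). In that fit 0 of 13764 genes (0.0%) passed an adjusted p of 0.05, with 148 higher and 98 lower at an unadjusted p under 0.05, and DESeq2 called 1 gene, the readthrough entry RPS10-NUDT3. The test of the difference between both contrasts, which asks whether the loss of MRCKβ acts otherwise without MRCKα, also called 0 genes (0.0%) by edgeR, with 138 and 97 at an unadjusted p under 0.05, and the same readthrough entry by DESeq2.

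Only 1 gene at least 1.5-fold above the vector range had both DKO values at least 1.5-fold above MRCKα KO, and no gene did so below. Of all 11148 genes, 95 had both DKO values that far above MRCKα KO (0.852%) and 46 that far below (0.413%). The 1 gene was CLEC2D, a ligand of a receptor on natural killer cells, at 1.16 FPKM in MRCKβ KO, 0.68 and 0.38 in the vector libraries, 0.67 in MRCKα KO, 1.10 in DKO 1 and 1.08 in DKO 2. The gene had 63 counts in MRCKβ KO, and DKO differed from MRCKα KO by 0.69 ± 0.50 (SE) on the log2 scale with an adjusted p of 1.

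By position, 11077 of the measured genes were placed on chromosomes (GENCODE 29, GRCh38). Chromosome 15 had the largest share above, with 163 of 345 genes (47.2%) and 18.6% below. The genes above lay mostly in the distal part, with a boundary at 60 Mb chosen after the values were seen. From 60 Mb onward 112 of 194 genes were above (57.7%) and 23 below, with a median log2 difference of 0.08 from vector 1 and 0.29 from vector 2, whereas up to 60 Mb 51 of 151 were above and 41 below. In MRCKα KO and DKO the distal median was 0.04 and 0.03 from the vector mean. Chromosomes 14, 21, 4 and 3 had the largest shares below, at 40.6%, 40.6%, 38.8% and 36.3%.

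On chromosome 14, where CDC42BPB lies, 149 of 367 genes were below the range and 81 above. The median log2 difference was -0.04 from vector 1 and -0.08 from vector 2. In the separate comparison of DKO with MRCKα KO the chromosome's median was -0.12, against 0.00 for all genes. Other chromosomes were as far out there, with -0.13 on chromosome 18 and 0.11 on chromosome 19. Distal of CDC42BPB 14 of 27 genes were below (51.9%) and 6 above. The distal median in MRCKβ KO was -0.03 from vector 1 and -0.15 from vector 2. It was -0.09 in MRCKβ KO against the vector mean and -0.24 in DKO against MRCKα KO. Proximal of the gene the medians were -0.06 and -0.11, over 339 genes. In MRCKα KO, which was made with guides on another chromosome, the distal and proximal medians were 0.12 and 0.05 from the vector mean. The number of copies of these regions was not measured.

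**Figure D4:**
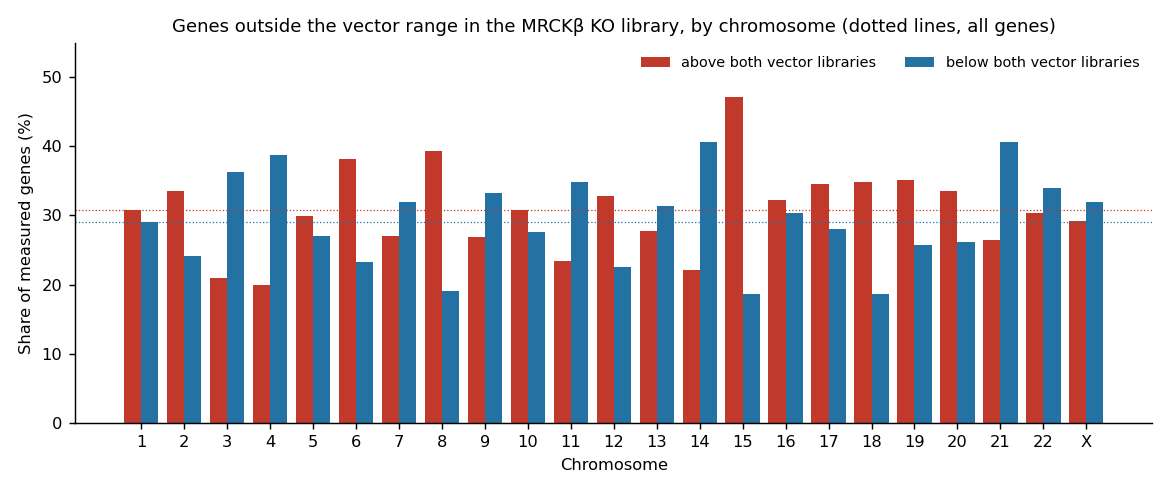
Share (%) of the measured genes of each chromosome that were above both vector libraries (red) or below both (blue) in MRCKβ KO, with dotted lines at the shares of all genes. Chromosome 15 has the highest red bar (47.2%), and chromosome 14, which holds CDC42BPB, has 40.6% below and 22.1% above.

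Some of the regional differences followed the controls. On chromosome 3 from 45 to 60 Mb 62 of 136 genes were below and 13 above, but the median was 0.00 from vector 1 and -0.27 from vector 2, and vector 1 was lower than vector 2 by 0.28. In the same way chromosome 8 from 120 to 135 Mb had a median of 0.04 from vector 1 and 0.44 from vector 2. Members above and below differed little in build, with a median transcript length of 2954 bases above and 3227 below and a median GC content of 48.4% and 46.8%, known for 99.3% of each.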

How the data were processed

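RNA of 6 MDA-MB-231 libraries (2 vector, 1 MRCKα KO, 1 MRCKβ KO and 2 DKO) was sequenced as single-end reads by BGI on the BGISEQ-500 platform. The expected counts deposited per library are estimated reads per gene, not normalized and not always whole, and FPKM values, computed by the authors' sequencing provider, were deposited in 1 table rounded to 2 decimals. The submitters' processing notes name HISAT, Bowtie2, RSEM and GRCh38.p11, without stating which step each served. Counts were not said to use strand, so reads of overlapping antisense genes cannot be told apart.

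The range rule was applied to FPKM, and the distance of a gene is the ratio of its FPKM in MRCKβ KO to the nearer vector value. Exact (Clopper-Pearson) 95% intervals of count ratios cover counting error only, and a gene at 0 may have had up to 3 counts, 2.8e-05% to 2.9e-05% of a library. List values are log2(FPKM + 0.1), which understates changes of low genes. Expected counts were rounded for edgeR 4.0.16 (quasi-likelihood test, TMM, filterByExpr, no block) in R 4.3.3, with DESeq2 1.42.0 as an alternative. The edgeR fit and the counting interval were tested on simulated data before use, and DESeq2 was not. The 27 gene lists and 6 marker lists were written by hand, and 992 of 1016 entries matched a listed gene. Members, lists and tests were chosen with earlier results of these data known. Named genes are the targeted pair, the MRCK pathway, LMOD1, the 12 furthest above and below, the 8 and 8 with 1000 or more counts, the first 3 on each side in each list, the members at least 1.5-fold outside whose DKO values lie as far beyond MRCKα KO, and those at the edges of the rule. Other genes named were chosen after their values were seen. Promoters were taken from RefSeq (GRCh38.p14) and positions from GENCODE 29. The vector libraries came from 2 transductions and the DKO libraries from 2 guide sets of 1 cell line, so p-values measure the spread between these samples.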

Additional observations from a re-analysis of the deposited data

How the results depend on the processing

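No paired analysis was possible because the MRCKβ KO and MRCKα KO groups hold 1 library each. The number of genes outside the vector range stayed within 1.5 times under all 6 alternatives tried (TMM, DESeq2 and library-total scaling of counts, count minimums of 10 and 200, and a pseudocount of 1 FPKM). The number at least 1.5-fold outside depended on the setting. From 78 above and 42 below it became 320 and 172 with a count minimum of 10, 16 and 4 with a minimum of 200, 34 and 9 with a pseudocount of 1 FPKM, 376 and 268 at a margin of 25% and 12 and 2 at a margin of 2-fold. Leaving out 1 vector library gave between 223 and 932 above and between 111 and 472 below, the larger values being those against vector 2 alone.

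Lists at least 0.1 (log2) above the vector mean numbered 8, and 4 to 10 with 1 vector library left out, and lists below 4, and 2 to 6. Against single vector libraries the medians had opposite signs for 10 lists nearer to 0 than that and for 3 lists further out, between -0.02 and 0.59 for cholesterol and fatty acid synthesis, between -0.16 and 0.03 for interferon-stimulated genes and between -0.03 and 0.29 for NF-κB and inflammation. Counted after the data were seen, the genes on the named side of 1 vector library alone were 14 to 32 for cholesterol, 16 to 28 for NF-κB, 16 to 19 for integrins, 11 to 18 for NRF2 and iron, 309 to 423 on chromosome 3 and 239 to 254 on chromosome 4. By scaled counts in place of FPKM, 4 named genes changed direction: PPP1R12B to 0.08, AMOTL1 to 0.05, IRF7 to -0.10 and ERBB3 to 0.59, with TMM and DESeq2 scaling alike.

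The all-gene fits called 0 genes in every other setting, apart from 1 gene higher in MRCKβ KO (MTPN) by DESeq2 and in the fit of the MRCKβ KO and vector libraries only, 1 gene lower (SPANXA1) without vector 1, where the gene had 3274 counts in vector 2 and 13 in vector 1, and 1 gene lower (RPS10-NUDT3) by DESeq2 in DKO against MRCKα KO and in the interaction. With 1 vector or DKO library left out, the lone sample was assumed to vary like the other group. The cause was not tested.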

Other observations

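SPANXA1, a cancer-testis gene of the X chromosome, was at 816 FPKM in vector 2 and between 0.93 and 6.53 FPKM in the 5 other libraries, with 3274 counts in vector 2 and 26 in MRCKβ KO. NQO1 was likewise high in vector 2, at 268 FPKM against 54.8 to 77.1 elsewhere. DKO 2 resembled vector 2 more than vector 1, with a median absolute log2 difference of 0.167 against 0.190, whereas DKO 1 resembled vector 1 more, at 0.137 against 0.187. The labels give no batch for these libraries.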
